A study of Mus musculus with 6 samples.

Results

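The genes described are 10 subunits and feedback inhibitors of NF-kappaB, of the 24062 gene symbols counted in 6 libraries: Nfkb1, Nfkb2, Rela, Relb, Nfkbia, Nfkbie, Nfkbiz, Tnfaip3, Bcl3 and Birc3. They were chosen by symbol, and all 10 passed the filter on low counts that left 13185 genes. RNA was sequenced from NIH3T3 cells, an established line of mouse embryonic fibroblasts. The design varies SPT6 (gene Supt6), which travels with RNA polymerase II and handles histones during elongation, and interferon beta (IFN-beta), an antiviral cytokine. Every culture had been transfected for 48 h with either SPT6 siRNA or a negative control siRNA, 1 catalogue siRNA per arm. The groups were SPT6 siRNA with IFN-beta at 100 units/ml for 4 h (n = 2 libraries), control siRNA with the same IFN-beta treatment (n = 2), SPT6 siRNA untreated (n = 1) and control siRNA untreated (n = 1). The untreated libraries are titled 0 h, so an effect of the 4 h of culture and one of IFN-beta cannot be told apart. Nothing in the labels ties a replicate to its own culture, so p-values measure the spread between these libraries, which may be technical.

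NF-kappaB is a family of dimeric transcription factors that rest in the cytoplasm, held there by inhibitors of the IkappaB family. Inflammatory signals activate the IkappaB kinase complex, the inhibitors are degraded, and the dimers enter the nucleus. Among the genes they switch on are their own inhibitors, so that the response limits itself. In fibroblasts the pathway is known for its answer to tumour necrosis factor, interleukin-1 and microbial products, whereas IFN-beta acts mainly through JAK-STAT signalling.

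All 10 are protein-coding genes in the GENCODE annotation of build GRCm38. The subunit genes are Nfkb1 (chr3:135584655-135691547, minus strand), Nfkb2 (chr19:46304320-46312385, plus), Rela (chr19:5637483-5648130, plus) and Relb (chr7:19606217-19629438, minus). The genes of the IkappaB family are Nfkbia (chr12:55489410-55492647, minus), Nfkbie (chr17:45555703-45563169, plus), Nfkbiz (chr16:55811375-55838899, minus) and Bcl3 (chr7:19808462-19822770, minus). The ubiquitin-related regulators are Tnfaip3 (chr10:19000910-19015657, minus) and Birc3 (chr9:7848699-7873186, minus).

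Promoter sequence is shown for the members whose start regions hold the kappaB consensus, the DNA element the dimers bind, since many of these genes are themselves known targets of the pathway. RefSeq promoter windows on build GRCm38.p6, reaching from 250 bases before to 50 bases after an annotated start, were available for 7 of the 10 genes. Nfkb1, Relb and Nfkbiz were not among them. On either strand, the kappaB consensus was found for 5 of those 7 genes, and in 9.55% of the 27025 genes with a window. The 250 bases before the Nfkbia start (chr12:55492648-55492897, minus strand) are given with their match in capitals, which begins 29 bases before the start.
Nfkbia: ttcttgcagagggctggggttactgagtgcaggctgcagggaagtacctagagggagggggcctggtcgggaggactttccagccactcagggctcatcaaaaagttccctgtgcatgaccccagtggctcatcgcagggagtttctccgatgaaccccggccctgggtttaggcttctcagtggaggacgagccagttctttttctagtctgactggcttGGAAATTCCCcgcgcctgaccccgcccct
For the other 4 genes a match with 10 bases on each side is given 5′ to 3′ on the strand of the gene, again with the match in capitals. They lie at chr19:46304688-46304717 (plus strand, 39 bases before the start) for Nfkb2, chr17:45555584-45555613 (plus strand, 106 bases before) for Nfkbie, chr10:19015403-19015432 (minus strand, 12 bases before) for Tnfaip3 and chr7:19822734-19822763 (minus strand, 2 bases after the start) for Bcl3.
Nfkb2: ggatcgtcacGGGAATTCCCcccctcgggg
Nfkbie: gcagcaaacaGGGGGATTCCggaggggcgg
Tnfaip3: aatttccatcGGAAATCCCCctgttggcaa
Bcl3: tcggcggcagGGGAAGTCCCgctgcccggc
Nfkb2, which has several annotated starts, and Tnfaip3 hold further matches, some of those of Nfkb2 overlapping. The core of the interferon-stimulated response element, searched on either strand as GAAA, any 2 bases and GAAA again, was found in none of the windows of these 7 genes and in 3.44% of all 32851 windows. A match describes these letters and does not show that a factor was bound.

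Per length, the subunit genes Nfkb1 and Nfkb2 and the inhibitor gene Nfkbia were the most abundant. Their levels averaged 30.7 ± 2.07, 27.4 ± 4.00 and 23.6 ± 7.61 CPM per kilobase of principal transcript (SD over all 6 libraries; CPM is the count scaled to the TMM-normalised library size), and the ranges of these 3 genes over the libraries overlapped. Rela, which encodes the main activating subunit, followed at 11.8 ± 1.46 and Relb, a subunit of the non-canonical pathway, at 6.50 ± 0.901 CPM per kilobase. Neither range overlapped that of the gene before it in the order. Birc3, a ubiquitin ligase and inhibitor of cell death, and Nfkbiz, a nuclear IkappaB protein, had 4.59 ± 1.11 and 4.59 ± 1.007 CPM per kilobase and could not be ordered, and both also overlapped Relb. Bcl3, another nuclear IkappaB protein, and Nfkbie, a cytoplasmic inhibitor, stood at 2.58 ± 0.706 and 2.01 ± 0.269 CPM per kilobase with overlapping ranges, and Bcl3 overlapped Nfkbiz as well. Tnfaip3, a ubiquitin-editing brake on the pathway, was the lowest at 0.925 ± 0.339 CPM per kilobase, below every library of Nfkbie. With the union of all annotated exons as the length, Nfkbia (23.1 CPM per kilobase) and Nfkb2 (18.8) stood above Nfkb1 (10.48). Nfkb1 was then level with Rela (10.46), and Relb (3.70) was slightly below Nfkbiz (3.76). The order of the first 3, the gap between Nfkb1 and Rela and the place of Relb thus rest on the length used. Of the exon bases of Nfkb2, 11.6% lie over exons of AC114539.1 and 6.52% over exons of Psd, both on the other strand, and without a stated strand setting reads there cannot be told apart. The same holds for 6.51% of the exon bases of Bcl3, which lie over Gm16175. Psd is among the counted symbols, and AC114539.1 and Gm16175 are not under these names. Whether such reads were lost or credited to the members was not tested.

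**Figure D1:**
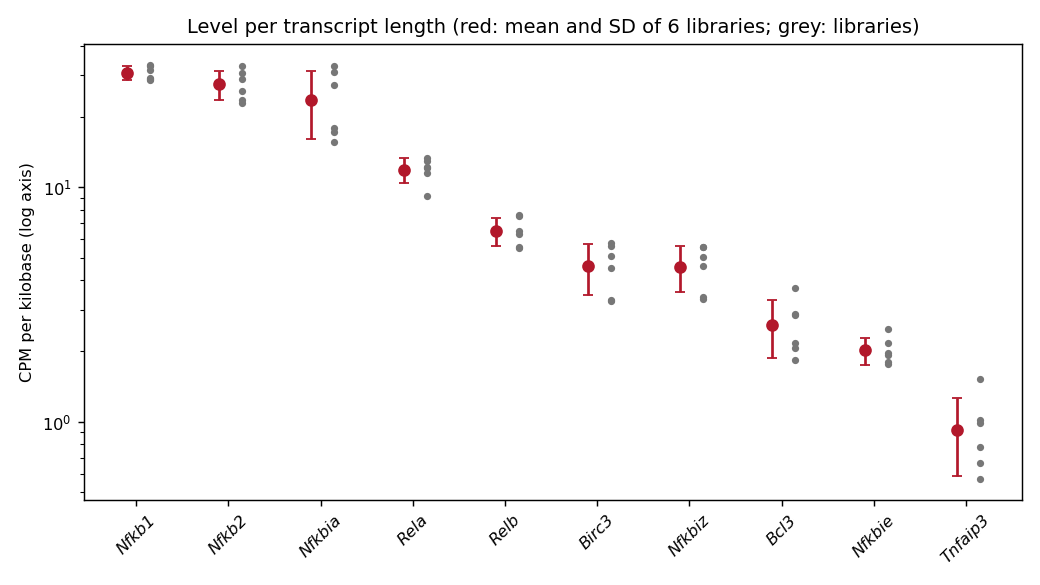
Level of each gene in CPM per kilobase of principal transcript on a log axis, with red points and bars for the mean and SD of the 6 libraries and grey points for single libraries. Nfkb1, Nfkb2 and Nfkbia lie highest (means 30.7, 27.4 and 23.6) and Tnfaip3 lowest (0.925).

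Total gene counts ran from 7935961 to 17596498 per library, and the SPT6 siRNA library was the shallower of each same-numbered pair. Supt6, the targeted gene, had 108 and 88.4 CPM with SPT6 siRNA and IFN-beta, against 177 and 189 CPM with control siRNA and IFN-beta. Untreated, it had 101 CPM with SPT6 siRNA and 175 CPM with control siRNA. With IFN-beta, SPT6 siRNA minus control siRNA was -0.90 ± 0.18 on the log2 scale for Supt6 (SE), which did not pass with edgeR (adjusted p = 0.247) and passed with DESeq2 (adjusted p = 0.0325). All 11 fibroblast markers were tested, and their summed level was 14707 to 17961 CPM in the SPT6 siRNA libraries and 19701 to 24081 CPM in the control siRNA libraries, with 10 of the 11 at a log2 difference below 0 with IFN-beta. The 9 macrophage markers summed to 16.2 to 18.5 CPM with SPT6 siRNA and 7.83 to 11.5 CPM with control siRNA. Of them, Cd68 had 7.75 and 9.92 CPM with SPT6 siRNA and IFN-beta, against 2.71 and 2.20 CPM with control siRNA and IFN-beta (log2 1.85 ± 0.32, SE; edgeR adjusted p = 0.238), and untreated 6.48 CPM with SPT6 siRNA and 2.38 CPM with control siRNA. Csf1r had 1.84 and 3.22 CPM with SPT6 siRNA and IFN-beta, against 1.73 and 1.07 CPM with control siRNA and IFN-beta, and untreated 1.44 CPM with SPT6 siRNA and 1.73 CPM with control siRNA. With IFN-beta, group means were lower with SPT6 siRNA than with control siRNA for Lyz2 (0.510 against 0.743 CPM) and Ptprc (0.043 against 0.143 CPM). They were higher for Cd14 (4.82 against 3.60 CPM), Aif1 (0.546 against 0.361 CPM) and Itgam (0.400 against 0 CPM). Untreated, Cd14 had 5.40 CPM with SPT6 siRNA and 5.92 CPM with control siRNA. In the same order, Lyz2 had 1.44 and 0.822 CPM untreated and Ptprc 0.240 and 0.164 CPM, from 2 counts in each library. Aif1 had 1.08 and 0.411 CPM and Itgam 0.120 and 0 CPM. Tyrobp had 0 counts in every library and Emr1 had 0 counts in all but the untreated control library, with 1 count there. The 6 lymphocyte markers summed to 0.839 to 1.48 CPM with SPT6 siRNA and 0.226 to 0.534 CPM with control siRNA, and 9 endothelial and epithelial markers summed to 4.08 to 6.87 CPM with SPT6 siRNA and 2.08 to 4.59 CPM with control siRNA. The part of these differences in the results on the 10 genes was not tested.

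With IFN-beta, Nfkbia lay higher with SPT6 siRNA than with control siRNA. It encodes IkappaB-alpha, the fast-acting inhibitor that is resynthesised after each round of activation. Nfkbia had 478 and 595 counts (48.7 and 51.8 CPM) in the SPT6 siRNA libraries with IFN-beta, against 375 and 458 counts (28.2 and 27.2 CPM) in the control siRNA libraries with IFN-beta. The groups did not overlap, and their means were 50.2 ± 2.14 and 27.7 ± 0.742 CPM (SD, n = 2 each). On the log2 scale SPT6 siRNA stood 0.86 ± 0.17 above control siRNA (SE), a fold of 1.81. It ranked at place 99 among the 13185 genes by p and did not pass the edgeR quasi-likelihood test (unadjusted p = 0.00191, Benjamini-Hochberg adjusted p = 0.254), and DESeq2 gave an adjusted p = 0.164. As these are bulk libraries, more RNA per cell and more cells that express the gene cannot be told apart. Because CPM is scaled within each library, more RNA of this gene and less RNA of the other genes cannot be told apart either. The same holds for every SPT6 siRNA difference given here.

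Nfkbiz, an inducible nuclear IkappaB protein that acts on secondary NF-kappaB targets, was the other member at an unadjusted p under 0.05. It had 225 and 239 counts (22.9 and 20.8 CPM) with SPT6 siRNA and IFN-beta, against 186 and 231 counts (14 and 13.7 CPM) with control siRNA and IFN-beta. Its 2 SPT6 siRNA libraries lay above both control siRNA libraries. The log2 difference was 0.66 ± 0.20 (SE; edgeR unadjusted p = 0.0152, adjusted p = 0.356), and the DESeq2 adjusted p was 0.679.

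The remaining inhibitors gave smaller or less even differences. Tnfaip3 had 43 and 77 counts (4.38 and 6.70 CPM) with SPT6 siRNA and IFN-beta, against 46 and 76 counts (3.46 and 4.51 CPM) with control siRNA and IFN-beta, and the groups overlapped (log2 difference 0.47 ± 0.35, SE; edgeR adjusted p = 0.629). Bcl3 had 5.30 and 4.00 CPM with SPT6 siRNA and 3.39 and 3.80 CPM with control siRNA. Those groups did not overlap, though the nearest libraries of Bcl3 were 46 counts with SPT6 siRNA and 64 with control siRNA, in libraries of unequal depth. Its log2 difference was 0.37 ± 0.31 (SE; edgeR adjusted p = 0.68). Nfkbie stood at 4.28 and 4.78 CPM with SPT6 siRNA and at 6.02 and 4.69 CPM with control siRNA, with overlapping groups (-0.24 ± 0.30). Birc3 had 12 and 8.70 CPM with SPT6 siRNA and 13.6 and 8.78 CPM with control siRNA (-0.11 ± 0.31). For Birc3 the replicate number separated the libraries and the siRNA did not.

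The subunits lay slightly lower or overlapped. Nfkb1, the precursor of the p50 subunit, had 117 and 121 CPM with SPT6 siRNA and IFN-beta, against 137 and 130 CPM with control siRNA and IFN-beta, a log2 difference of -0.17 ± 0.16 (SE; edgeR adjusted p = 0.711). Nfkb2, the precursor of the p52 subunit, had 73.7 and 72.0 CPM with SPT6 siRNA and 96.0 and 80.8 CPM with control siRNA (-0.28 ± 0.17; edgeR adjusted p = 0.562). For both precursors the groups did not overlap, but the differences were under 2 SE. Rela stood at 24.9 and 36.1 CPM with SPT6 siRNA and 31.2 and 33.1 CPM with control siRNA, so its SPT6 siRNA libraries lay on either side of the control ones (-0.07 ± 0.23). Relb stood at 14.4 and 12.2 CPM with SPT6 siRNA and 16.6 and 13.9 CPM with control siRNA, again with overlap (-0.20 ± 0.23).

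Over the whole comparison edgeR called 0 of the 10 members, and 0% of the 13185 genes, at an adjusted p under 0.05. DESeq2 called 0 members and 0.44% of genes. At an unadjusted p under 0.05, 2 members were higher (Nfkbia and Nfkbiz), where 7.36% of all genes were. The 2 SPT6 siRNA libraries lay wholly above the control ones for 3 members and wholly below for 2, against 22.7% and 21.3% of all genes, so such separation was common. The members' median log2 difference was -0.09, with 4 of 10 above 0, beside a median of -0.02 and 48% above 0 over all tested genes.

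**Figure D2:**
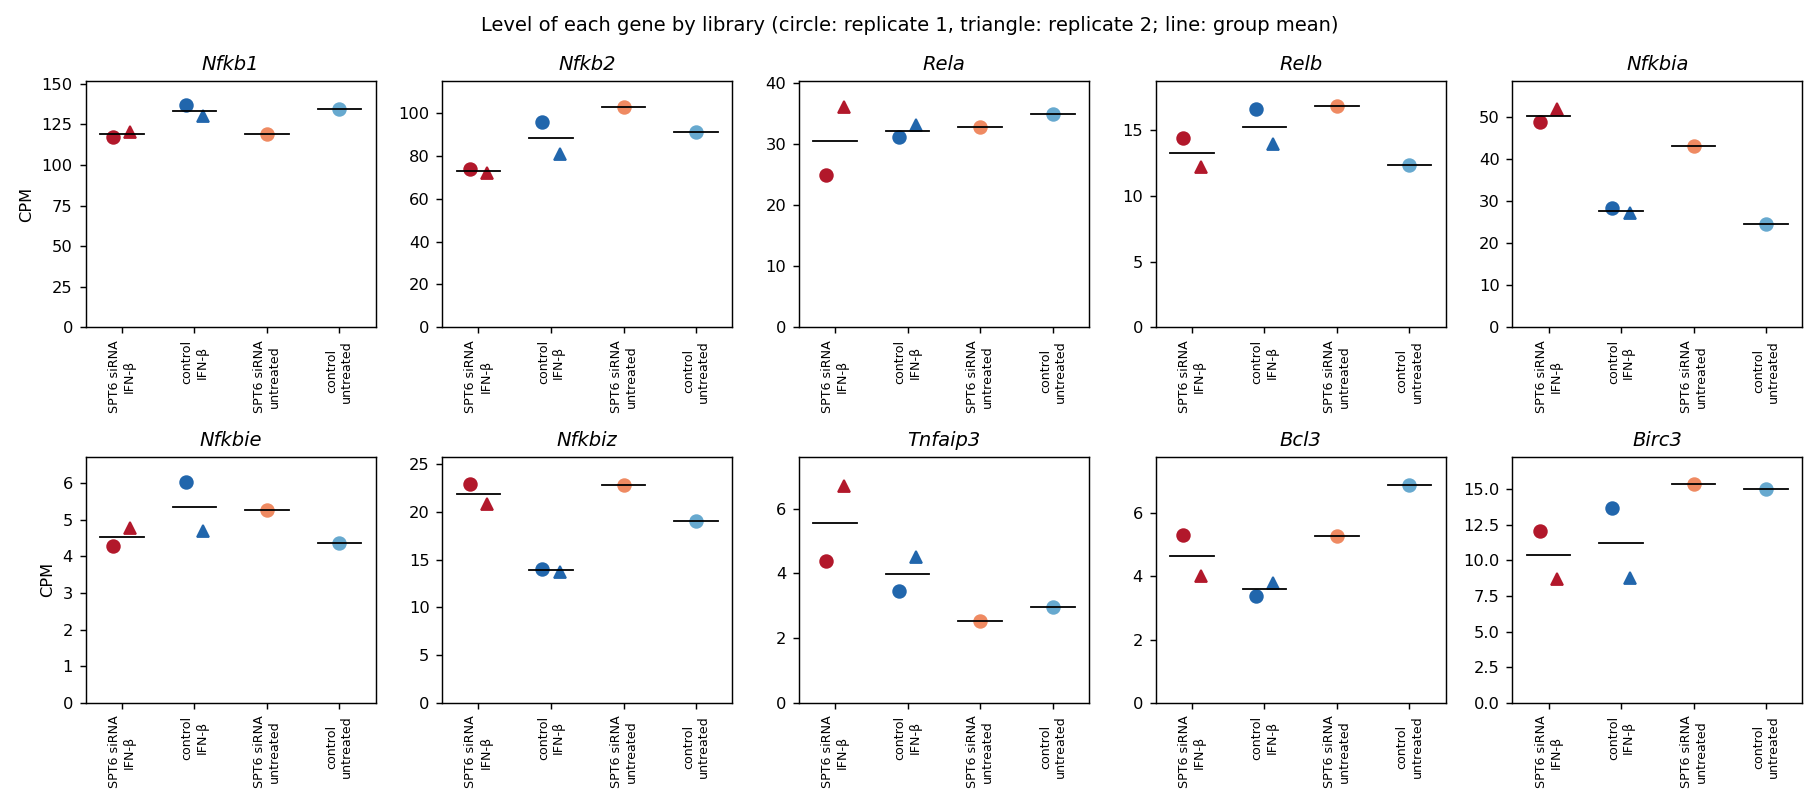
CPM of each gene in every library, with circles for replicate 1, triangles for replicate 2 and a line at the group mean, each panel starting at 0. The 3 SPT6 siRNA libraries of Nfkbia sit between 43.1 and 51.8 CPM and the 3 control siRNA libraries between 24.5 and 28.2 CPM.

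In untreated cells, with 1 library per siRNA and no test, Nfkbia again lay higher with SPT6 siRNA. It had 359 counts (43.1 CPM) in the SPT6 siRNA library and 298 counts (24.5 CPM) in the control siRNA library, a ratio of 1.76 (95% interval 1.503 to 2.06, exact binomial, counting error only). The log2 difference was 0.81 untreated, beside 0.78 and 0.93 in the IFN-beta pairs of replicates 1 and 2. It was thus positive in all 3 pairs, where 2 members and 25.8% of all genes were. Nfkbiz had 22.8 CPM with SPT6 siRNA and 19.0 CPM with control siRNA (ratio 1.20, interval 0.985 to 1.46), and Relb had 16.8 CPM with SPT6 siRNA and 12.3 CPM with control siRNA (ratio 1.36, interval 1.07 to 1.73). The Relb difference of 0.44 log2 units untreated stood against -0.20 and -0.19 with IFN-beta. Nfkb1 had 119 CPM with SPT6 siRNA and 135 CPM with control siRNA (ratio 0.884, interval 0.816 to 0.957), and Nfkb2 had 103 CPM with SPT6 siRNA and 91.1 CPM with control siRNA (ratio 1.13, interval 1.03 to 1.24). For Rela, Nfkbie, Tnfaip3, Bcl3 and Birc3 the ratio ran from 0.764 to 1.21 and its counting interval held 1. These intervals leave out the spread between libraries, so one that excludes 1 does not establish a difference. Between same-group IFN-beta libraries, chi-square per degree of freedom over all tested genes was 39.55 with control siRNA and 35.03 with SPT6 siRNA. Counting error alone would put it near 1. Genes of high counts weigh most in this value, so it does not give the spread of any single member. Nfkbia was the only member past 1.5-fold in either direction in this pair, where 8.6% of all genes were higher and 6.32% lower by that much.

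Across both treatments, all 3 SPT6 siRNA libraries lay above all 3 control siRNA libraries for 2 members, Nfkbia and Nfkbiz, where 12.2% of all genes did so. They lay below for 1 member, Nfkb1, where 9.32% of all genes did. Nfkbia spanned 24.5 to 51.8 CPM over the libraries, a range of 2.11-fold, and Nfkb1 117 to 137 CPM, a range of 1.17-fold.

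**Figure D3:**
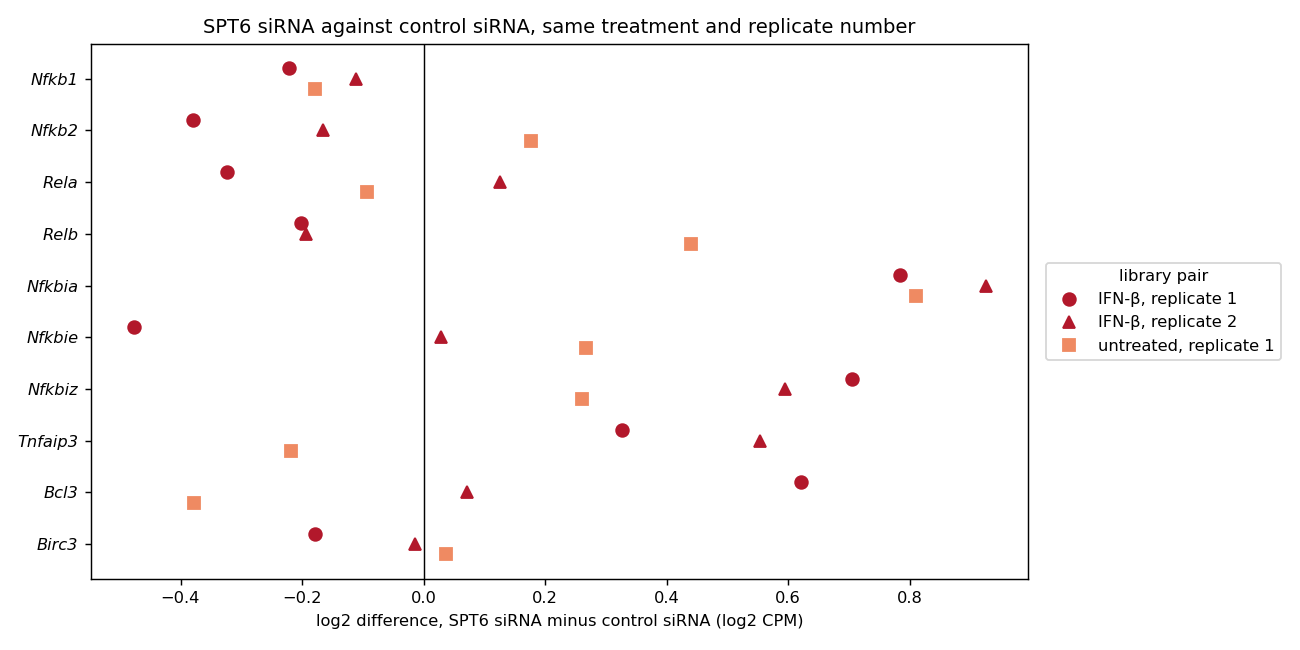
Log2 difference of SPT6 siRNA minus control siRNA for each gene in the 3 library pairs of the same treatment and replicate number (log2 CPM, prior count 2). Nfkbia lies at 0.78, 0.93 and 0.81, whereas Relb lies at -0.20 and -0.19 with IFN-beta and 0.44 untreated.

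The response to IFN-beta was then compared within each siRNA. With control siRNA none of the 10 genes passed the test, and edgeR called 0.137% of all genes. The largest difference among them was in Bcl3, a coactivator that pairs with p50 or p52 dimers. Bcl3 had 45 and 64 counts (3.39 and 3.80 CPM) with IFN-beta and 84 counts (6.90 CPM) untreated. Both IFN-beta libraries of Bcl3 lay below the untreated one, at a log2 difference of -0.94 ± 0.37 (SE; edgeR unadjusted p = 0.0386, adjusted p = 0.586). Nfkbiz had 14 and 13.7 CPM with IFN-beta and 19.0 CPM untreated (-0.45 ± 0.24), and Birc3 had 13.6 and 8.78 CPM with IFN-beta and 14.96 CPM untreated (-0.42 ± 0.37). Nfkbia had 28.2 and 27.2 CPM with IFN-beta and 24.5 CPM untreated (0.18 ± 0.22). The inducible genes Relb (0.31 ± 0.28), Nfkbie (0.30 ± 0.38) and Tnfaip3 (0.43 ± 0.45) had positive differences within about 1 SE of 0. Those of Nfkb1, Nfkb2 and Rela were -0.01 ± 0.19, -0.04 ± 0.21 and -0.12 ± 0.28. Bcl3 was the only member at an unadjusted p under 0.05, where 8.24% of all genes were, and DESeq2 called 0 members and 1.77% of genes. Both IFN-beta libraries lay above the untreated library for 4 members and below it for 4, against 35.2% and 38.1% of all genes.

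With SPT6 siRNA the largest response difference was in Tnfaip3, which had 43 and 77 counts (4.38 and 6.70 CPM) with IFN-beta and 21 counts (2.52 CPM) untreated. Both IFN-beta libraries of Tnfaip3 lay above the untreated one, at a log2 difference of 1.14 ± 0.49 (SE; edgeR unadjusted p = 0.0529, adjusted p = 0.851). Nfkb2 had 73.7 and 72.0 CPM with IFN-beta and 103 CPM untreated, lower in both libraries (-0.50 ± 0.21; edgeR adjusted p = 0.851). Birc3 had 12 and 8.70 CPM with IFN-beta and 15.4 CPM untreated (-0.57 ± 0.37), and Relb 14.4 and 12.2 CPM with IFN-beta and 16.8 CPM untreated (-0.34 ± 0.28). Nfkbia had 48.7 and 51.8 CPM with IFN-beta and 43.1 CPM untreated (0.22 ± 0.21). The other 5 genes had differences between -0.22 and 0 log2 units. edgeR called 0 members and 0.0455% of all genes, and DESeq2 called 0 members and 0.998% of genes. No member had an unadjusted p under 0.05, where 5.85% of genes did. Both IFN-beta libraries lay above the untreated one for 2 members and below it for 4, against 34.5% and 34.6% of all genes.

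**Figure D4:**
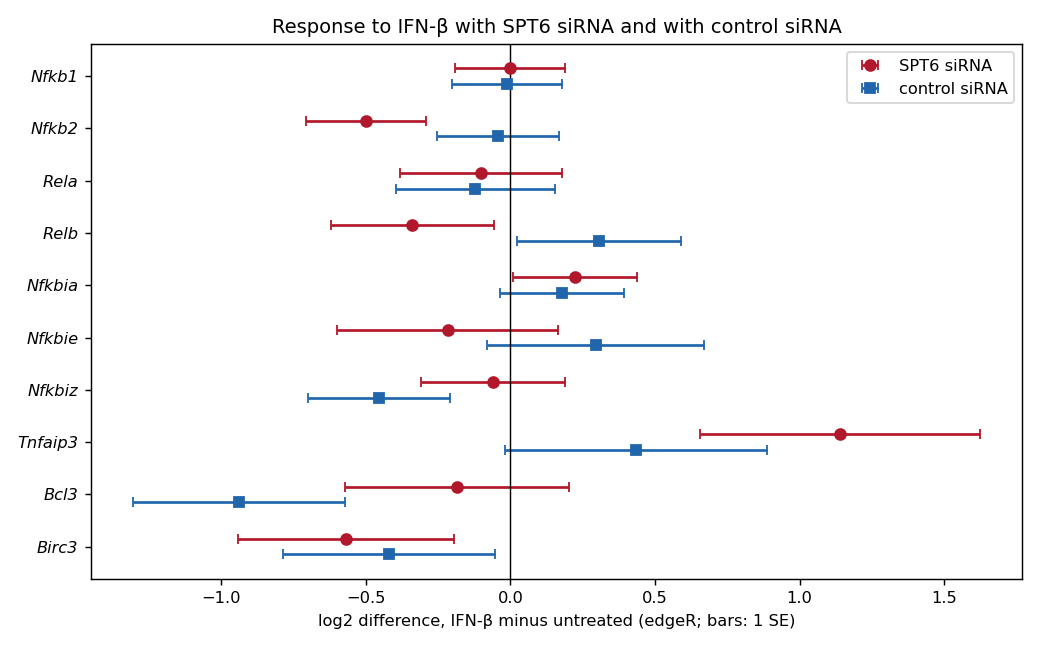
Fitted log2 difference of IFN-beta minus untreated for each gene, with SPT6 siRNA (red) above control siRNA (blue) and bars of 1 SE from edgeR. Tnfaip3 lies highest with SPT6 siRNA (1.14 ± 0.49) and Bcl3 lowest with control siRNA (-0.94 ± 0.37), and neither passed the test.

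The difference between the responses was tested directly, as the response with SPT6 siRNA minus that with control siRNA. It was 0.05 ± 0.30 for Nfkbia (log2, SE). The most positive values were those of Bcl3 (0.75 ± 0.54) and Tnfaip3 (0.71 ± 0.65) and the most negative that of Relb (-0.65 ± 0.40). Without SPT6 siRNA replicate 1 with IFN-beta, Bcl3 was at 0.51 and Tnfaip3 at 0.94, and without replicate 2 Tnfaip3 was at 0.34, so their order and size rest on single libraries. Relb had a response of -0.34 with SPT6 siRNA and 0.31 with control siRNA. The interaction test of edgeR called 0 members and 0% of genes (adjusted p = 1 for each of the 10), with 0 members and 0.379% of genes at an unadjusted p under 0.05, and DESeq2 called 0 members and 0% of genes. Each response rests on 1 untreated library, and the SE of these differences ran from 0.27 (Nfkb1) to 0.65 (Tnfaip3).

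Around these 10 genes, other genes of the pathway were followed in 4 lists, chosen with earlier results of these data known. In the SPT6 siRNA comparison with IFN-beta edgeR called no gene of any list, and none of all 13185 tested genes, of which 48% were above 0. Among 15 tested receptors and adaptors the median log2 difference was 0, with 7 above 0, and among 24 kinases and ubiquitin enzymes it was 0.05, with 14 above 0. Tab1 and Tab3, which encode partners of the kinase TAK1, had differences of opposite sign. Tab1 had 21.4 and 22.4 CPM with SPT6 siRNA and 37.3 and 33.1 CPM with control siRNA (-0.68 ± 0.18; edgeR adjusted p = 0.33), and Tab3 had 46.1 and 51.9 CPM with SPT6 siRNA and 30.6 and 38.2 CPM with control siRNA (0.51 ± 0.20; edgeR adjusted p = 0.399). Map3k7, which encodes TAK1 itself, was at 0.35 ± 0.16, Ticam1, an adaptor of Toll-like receptors, at 0.34 ± 0.23 and Tnfrsf12a, a receptor of the tumour necrosis factor family, at 0.37 ± 0.28. Tlr3, the receptor of double-stranded RNA, had 68.6 and 37.1 CPM with SPT6 siRNA and 92.3 and 58.3 CPM with control siRNA, with overlapping groups (-0.51 ± 0.36; edgeR adjusted p = 0.612). It was at -1.03 without SPT6 siRNA replicate 1 and at -0.13 without control siRNA replicate 1.

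Among 13 other subunits and inhibitors the median was 0.12 and 11 were above 0. Nfkbib, which encodes IkappaB-beta, had 8.16 and 12 CPM with SPT6 siRNA and 6.02 and 7.36 CPM with control siRNA (0.59 ± 0.30; edgeR adjusted p = 0.493), and was at 0.28 without SPT6 siRNA replicate 2. The inhibitory genes Rnf11 and Otulin were at 0.37 ± 0.16 and 0.33 ± 0.17. Of 35 listed target genes 19 were tested, and 11 of these were above 0 at a median of 0.19. Lif, a cytokine of the interleukin-6 family, had 8.26 and 10.4 CPM with SPT6 siRNA and 5.57 and 5.22 CPM with control siRNA (0.79 ± 0.28; edgeR adjusted p = 0.376). Sod2, the mitochondrial superoxide dismutase, had 126 and 136 CPM with SPT6 siRNA and 81.8 and 100.2 CPM with control siRNA (0.52 ± 0.18; edgeR adjusted p = 0.374). Cxcl1, a neutrophil chemokine, had 5.71 and 7.65 CPM with SPT6 siRNA and 3.61 and 4.75 CPM with control siRNA (0.67 ± 0.30; edgeR adjusted p = 0.442).

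In the response to IFN-beta with control siRNA, edgeR called 1 of the 19 tested target genes higher and none lower, beside 0.137% of all genes. The 19 had a median of 0.58 with 14 above 0, beside a median of -0.01 and 49.4% above 0 over all tested genes. As the list was chosen with earlier results of these data known and holds the interferon-responsive Irf1, this is a description only. Listed targets that were too low to test included Tnf, Il1b and Cxcl2, at 0 CPM with control siRNA and IFN-beta. The gene called was Ccl2, a monocyte chemokine, with 198 and 191 CPM with IFN-beta and 25.6 CPM untreated (log2 2.93 ± 0.23, SE; edgeR adjusted p = 0.0171). Ccl7, a related chemokine, was at 2.40 ± 0.36 and Irf1, an interferon-responsive transcription factor, at 1.59 ± 0.22 (edgeR adjusted p = 0.123 and 0.105). DESeq2 called both higher (adjusted p = 1.71e-07 for Ccl7 and 1.63e-05 for Irf1). Ccl2 and Ccl7 are close paralogs. Reads not uniquely aligned were left out of the gene counts, and the effect of this on these 2 genes was not tested. Cxcl1, given here after its values were seen, lay the other way, with 3.61 and 4.75 CPM with IFN-beta and 12.2 CPM untreated (-1.54 ± 0.35; edgeR adjusted p = 0.311). Among the receptors Tlr3 had 92.3 and 58.3 CPM with IFN-beta and 8.88 CPM untreated (3.08 ± 0.53; edgeR adjusted p = 0.186). Tnfrsf12a had 126 and 173 CPM with IFN-beta and 42.4 CPM untreated (1.82 ± 0.38; edgeR adjusted p = 0.275), and Il1rap, the co-receptor of interleukin-1, 187 and 185 CPM with IFN-beta and 121 CPM untreated (0.62 ± 0.20; edgeR adjusted p = 0.505). N4bp1, an inhibitor of the pathway, had 175 and 174 CPM with IFN-beta and 84.4 CPM untreated (1.05 ± 0.20; edgeR adjusted p = 0.209), and Rnf31, a subunit of the linear ubiquitin ligase, was at 1.26 ± 0.29. The kinase gene Ikbke was at -0.61 ± 0.31, the ubiquitin-conjugating enzyme gene Ube2n at 0.38 ± 0.21, the mRNA-decay factor gene Zfp36 at 0.85 ± 0.40 and Nfkbib at 0.68 ± 0.39. edgeR called no receptor, kinase, ubiquitin enzyme or further inhibitor on the lists. DESeq2 called 3 of the named ones higher, Tlr3 (adjusted p = 4.14e-09), Tnfrsf12a (adjusted p = 7.33e-05) and N4bp1 (adjusted p = 0.00833). The median of the 10 members in this comparison was -0.03, with 4 above 0.

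**Figure D5:**
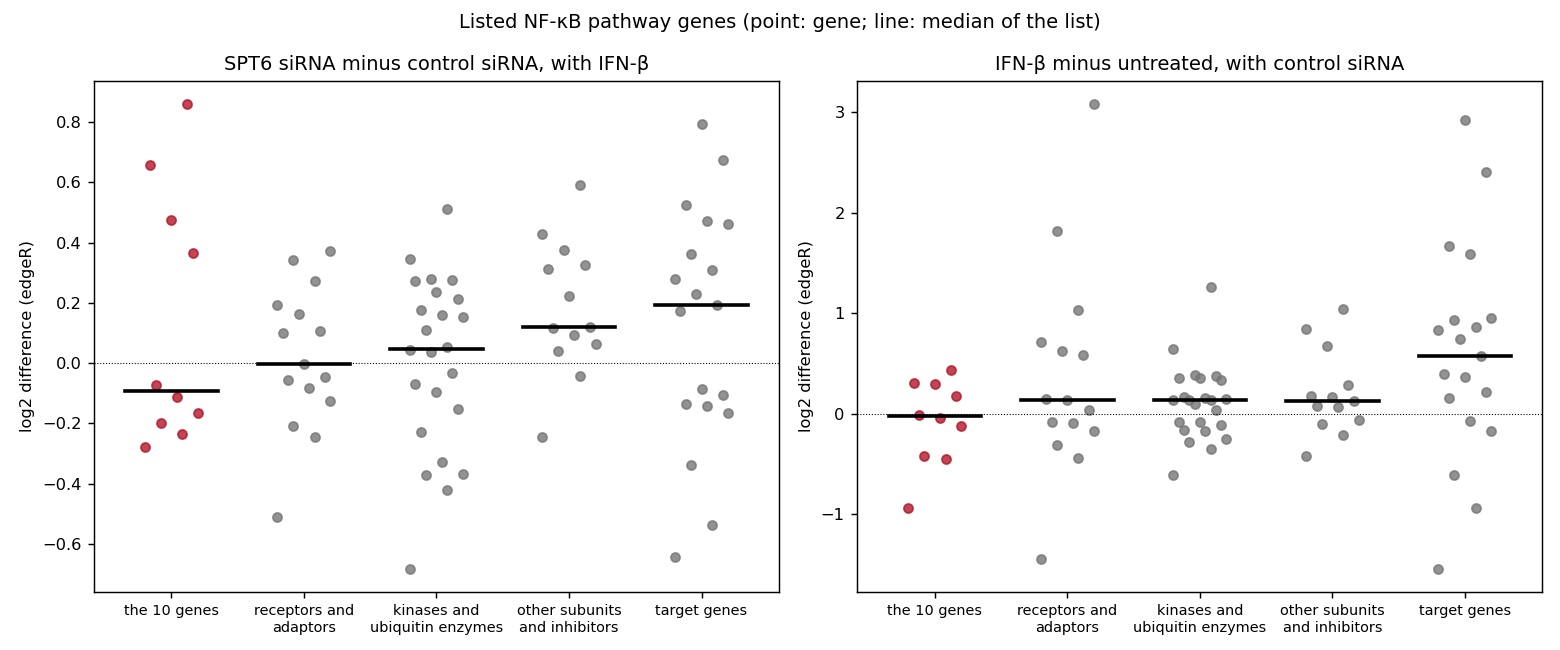
Fitted log2 differences of the 10 genes (red) and of the 4 pathway lists (grey; each point a tested gene, each line a median), for SPT6 siRNA minus control siRNA with IFN-beta on the left and IFN-beta minus untreated with control siRNA on the right. In the right panel the target genes have a median of 0.58, with Ccl2 at 2.93 and Cxcl1 at -1.54, and the 10 genes a median of -0.03.

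The members did not vary as a block. Over the 6 libraries Pearson's r of log2 CPM was -0.93 between Nfkbia and Nfkb1, 0.75 between Nfkbia and Nfkbiz and -0.91 between Nfkb2 and Tnfaip3, as a description of libraries that share treatments. Birc3 was higher in replicate 1 than in replicate 2 with both siRNAs (0.46 log2 units with SPT6 siRNA and 0.62 with control siRNA), and Relb likewise (0.24 and 0.25). Tnfaip3 was lower in replicate 1 (-0.59 with SPT6 siRNA and -0.37 with control siRNA). In a search of 9808 genes whose mean log2 CPM reached 3, those most like Nfkbia were Ttc19, Ndfip2 and Gusb (r = 0.998, 0.996 and 0.996). For Nfkbiz they were Ccndbp1, Xrcc4 and Cds2 (r = 0.989, 0.986 and 0.98). Tcta, Sulf2 and Gas6 were most like Birc3 (r = 0.998, 0.994 and 0.993), and Tanc1, Apc and St7 most like Tnfaip3 (r = 0.995, 0.994 and 0.991). For each of the other 6 members, too, 3 genes were found at r of 0.925 or above over the 6 libraries. The search thus gave a high r for every member, and such values over so few libraries do not show joint regulation.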

How the data were processed

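Paired-end RNA sequencing of NIH3T3 cells used NuGEN libraries, per the labels' protocols. The authors deposited whole-number read counts per gene symbol, without normalisation. Builds mm10 and GRCm38 and the tools HTSeq 0.6.1p1, TopHat2 2.1.0 and DESeq2 appear, with no role, in the submitters' processing notes. The annotation and strand setting are not given in the sources used here. Lines naming no gene stayed out of library sizes and tests. Of the summed counts of all lines, 32.9% to 38% were in genes, 33.8% to 37.5% in no feature and 27.9% to 31.3% not uniquely aligned.

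The remaining steps ran in R 4.3.3. The filter was filterByExpr at a count minimum of 10, and scaling was by TMM. Genes were tested with edgeR 4.0.16 (estimateDisp, robust glmQLFit, glmQLFTest) on 4 group means over all 6 libraries, with p adjusted by Benjamini-Hochberg over 13185 genes and 0.05 as the threshold. Only the IFN-beta groups give residual degrees of freedom (2), so each lone untreated library is taken to have the same spread. Each SE was derived from the log2 difference and its F statistic. The steps were run on simulated libraries with no replicate-number effect and the same spread in all groups, so those assumptions were not tested. DESeq2 1.42.0, scaling, filters, library subsets and a block were alternatives. Positions and lengths came from GENCODE for GRCm38, and levels per length used the longest transcript of best APPRIS rank.

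The members and lists were chosen with earlier results of these data known. Named genes were the 10 members, Supt6, per pathway list the 3 genes of smallest p in the SPT6 siRNA comparison with IFN-beta and in the control response, and per member the 3 genes of highest r.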

Additional observations from a re-analysis of the deposited data

How the results depend on the processing

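The numbers 1 and 2 are shared by the siRNA groups, but no label says that a number marks a shared culture or day. Over 13185 genes the replicate 1 minus replicate 2 difference with SPT6 siRNA and that with control siRNA had r = 0.56, from 2 numbers only. With the replicate number as a block (1 residual degree of freedom) the members called in the SPT6 siRNA comparison with IFN-beta were 2, Nfkbia (adjusted p = 9.26e-07) and Nfkbiz (adjusted p = 0.00249), while 20% of all genes were called. The block also called Supt6, Tlr3, Tab1, Tab3, Nfkbib, Sod2, Lif and Cxcl1 in that comparison, and Tlr3, Tnfrsf12a, Il1rap, Rnf31, N4bp1, Irf1 and Ccl7 in the control response. A fit of 3 matched pairs as replicate block also called 2, the same genes, with 24.6% of all genes called, and put Relb at 0.005. The block called 0 members in both responses and in their difference, and put Nfkb2 at 0.023 in the control response. Under size factors, library size only, no count filter, a count minimum of 30, DESeq2 and each left-out IFN-beta library, 0 members were called in each of the 4 comparisons, as in the SPT6 siRNA comparison with only the 4 IFN-beta libraries.

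Nfkbia in the SPT6 siRNA comparison ran from 0.81 to 0.90 and Nfkbiz from 0.57 to 0.72 with a library left out. Tnfaip3 ran from 0.13 (without SPT6 siRNA replicate 2) to 0.73 (without replicate 1), and Bcl3 from 0.14 (without SPT6 siRNA replicate 1) to 0.55 (without replicate 2). In the control response Tlr3 was called without SPT6 siRNA replicate 1 (adjusted p = 0.0401) or replicate 2 (adjusted p = 0.0464), and Ccl7 and Irf1 without a count filter (adjusted p = 0.00253 and 0.00778). Some signs turned. Rela in the SPT6 siRNA comparison was 0.014 by library size only. Nfkb1 was 0.009 in the control response without a count filter, and in the SPT6 siRNA response it was -0.054 by library size only and -0.001 at a count minimum of 30. With a library left out, the SPT6 siRNA comparison ran from -0.397 to 0.247 for Birc3, -0.373 to 0.156 for Rela and -0.03 to 0.67 for Tnfrsf12a. The control response ran from -0.058 to 0.025 for Nfkb1 and -0.182 to 0.075 for Nfkb2, and the SPT6 siRNA response from -0.035 to 0.014 for Nfkb1 and -0.413 to 0.137 for Rela. The difference of responses ran from -0.435 to 0.219 for Birc3, -0.032 to 0.072 for Nfkb1, -0.024 to 0.095 for Nfkbia and -0.299 to 0.23 for Rela. Over all genes, edgeR called 0 in the SPT6 siRNA comparison, against 66 without a count filter and 58 by DESeq2. In the control response it called 18, against 10 at a count minimum of 30, 77 without a filter, 206 by DESeq2, 957 with the block and 16 to 52 with a library left out (52 without SPT6 siRNA replicate 1 and 45 without SPT6 siRNA replicate 2). In the SPT6 siRNA response it called 6, against 12 by library size only, 46 without a filter, 129 by DESeq2, 545 with the block and 9 to 25 with a library left out (25 without SPT6 siRNA replicate 2, 14 without either control siRNA replicate). The cause was not tested. Depth limits Tnfaip3, Bcl3 and Nfkbie, at 21 to 84 counts per library.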
